A study of Mus musculus with 30 samples.

Results

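Mouse cortical tumours carrying the epidermal growth factor receptor EGFR, in any of 7 forms, were compared as 1 group with tumours carrying the fluorescent protein mCherry, to ask which transcripts changed with all 7 forms. The receptor tumours were 25 of the 30 libraries of the series, taken by their labels. They held 3 tumours with wild-type EGFR, 5 with A289I, 4 with A289V, 3 with R108G, 4 with R108K, 3 with R222C and 3 with T263P. These names give single amino acid changes of the receptor. The mCherry tumours numbered 3, and the remaining 2 libraries were normal cortex. All were labelled as bulk cortex, the tumours as glioblastoma, and all mice were at postnatal day 70 when sampled. The labels give neither the species of the introduced EGFR sequence, nor its promoter, nor any other driver that the mCherry tumours share with the receptor tumours. They do not name the animal behind each library either, so p-values measure the spread between these libraries. Levels are in RPM, which stands here for the normalised counts of the deposit over a constant, and fold changes are receptor minus mCherry on the log2(RPM + 1) scale, which understates the change of low genes.

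EGFR is a receptor tyrosine kinase that binds ligands such as TGF-alpha, pairs with another receptor of its family and signals through the RAS-ERK and PI3K pathways, and it is often amplified or mutated in human glioblastoma. In the brain, EGFR acts in neural stem cells and in the oligodendrocyte lineage, where precursors that express Pdgfra and Cspg4 pass through a committed stage marked by Gpr17 and Bcas1 and then switch on the genes of myelin. Glioblastoma cells commonly express genes of the precursor stage.

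Of 15728 genes tested with limma across the 28 tumours, 4 passed a Benjamini-Hochberg adjusted p of 0.05 (0.0254% of the genes). Neu4, S100a1 and Pllp rose (0.0191% of the genes tested) and Kank4os fell (0.00636%). Neu4 encodes a sialidase, S100a1 a calcium-binding protein of the S100 family and Pllp the myelin proteolipid plasmolipin. An unadjusted p below 0.05 was reached by 817 genes (5.19%), of which 445 were higher (2.83%) and 372 lower (2.37%) with receptor. The size of the mCherry group, 3 libraries, limited the precision of every comparison with mCherry that follows.

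The start regions of the 3 genes that rose are shown because limma called each of them higher with receptor. Whether the 3 genes vary together was not tested. Each sequence is the RefSeq promoter window on GRCm38.p6, 250 bases before to 50 bases after the transcription start, 5′ to 3′ on the strand of the gene, at chr1:94020243-94020542 (plus strand) for Neu4, chr3:90514281-90514580 (minus strand) for S100a1 and chr8:94696193-94696492 (minus strand) for Pllp. Capitals mark matches, on either strand, to 4 motifs that were searched: the E-box core CANNTG, the SOX-type motifs ACAAAG and ACAATG, and the GC box GGGCGG. No match overlapped another.
Neu4: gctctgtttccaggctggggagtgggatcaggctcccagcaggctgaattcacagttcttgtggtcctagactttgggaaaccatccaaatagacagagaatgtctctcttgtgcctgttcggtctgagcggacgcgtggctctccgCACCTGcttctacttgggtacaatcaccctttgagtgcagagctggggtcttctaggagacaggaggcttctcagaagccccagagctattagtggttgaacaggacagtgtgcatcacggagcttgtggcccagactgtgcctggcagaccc
S100a1: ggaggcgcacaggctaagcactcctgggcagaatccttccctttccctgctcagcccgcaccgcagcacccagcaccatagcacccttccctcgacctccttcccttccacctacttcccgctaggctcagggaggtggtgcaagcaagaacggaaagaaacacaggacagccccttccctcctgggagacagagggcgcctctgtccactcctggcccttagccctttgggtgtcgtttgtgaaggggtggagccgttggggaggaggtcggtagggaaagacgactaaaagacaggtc
Pllp: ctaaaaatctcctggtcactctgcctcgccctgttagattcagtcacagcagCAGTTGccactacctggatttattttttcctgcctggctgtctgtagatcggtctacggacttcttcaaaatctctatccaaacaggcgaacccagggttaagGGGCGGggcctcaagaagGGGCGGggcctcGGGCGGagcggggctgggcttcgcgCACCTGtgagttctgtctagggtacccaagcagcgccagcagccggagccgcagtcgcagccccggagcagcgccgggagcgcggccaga
The Neu4 window held 1 match to CANNTG, the S100a1 window held none of the motifs, and the Pllp window held 2 matches to CANNTG and 3 to GGGCGG. Among all 32851 mouse promoter windows of the same length, 72.3% held CANNTG, 18.7% ACAAAG, 12.6% ACAATG and 35.7% GGGCGG.

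Egfr itself (mm10 chromosome 11, 16752203 to 16918158) was read first as a check of the labels. Its level was 17.5 to 2790.0 RPM with a median of 287 RPM in the 25 receptor tumours, against 30.9, 22.1 and 35.4 RPM in the mCherry tumours. In 24 of the 25 receptor tumours Egfr was above every mCherry tumour, and in R108G replicate 1, at 17.5 RPM, it was below all of them. R108G replicate 3 (52.3 RPM) and T263P replicate 2 (52.1 RPM) were the next lowest. Normal cortex had 12.7 and 11.3 RPM. The log2 fold change was 3.13 ± 0.87 (SE), with an exact two-sided permutation p of 0.00183 over the 28 tumours, while the limma p adjusted over all genes was 0.46. DESeq2 on the recovered reads called Egfr among 40 of 15728 genes, with a log2 fold change of 3.90 and an adjusted p of 0.000934. By edgeR on the same reads 12 genes were called, and Egfr was not among them. The labels do not give the species of the introduced sequence. Reads of a human EGFR sequence would align only in part to the mouse gene, so these levels cannot be taken as the dose of receptor.

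Neu4 (chromosome 1, 94020451 to 94028334) was the gene with the smallest p. It was 8.42, 19.4 and 37.3 RPM in EGFR wild-type tumours and 47.3, 106, 81.5, 151 and 104 RPM in A289I tumours. A289V tumours had 57.5, 51.5, 90.8 and 75.9 RPM, and R108G tumours had 112, 74.9 and 129 RPM. In R108K tumours Neu4 was 31.05, 46.4, 39.3 and 111 RPM, in R222C tumours 41.5, 21.5 and 26.8 RPM, and in T263P tumours 92.2, 58.7 and 41.7 RPM. The mCherry tumours had 6.44, 1.59 and 4.26 RPM, so the lowest receptor tumour, EGFR wild-type replicate 1, still lay above the highest mCherry tumour. These 2 neighbouring values came from 70 and 53 reads, and their exact Poisson 95% intervals, which cover counting error only, overlapped (6.57 to 10.6 RPM and 4.82 to 8.42 RPM). Neu4 averaged 66.3 ± 37.7 RPM in receptor tumours and 4.10 ± 2.43 RPM in mCherry tumours (SD, n = 25 and 3), a ratio of means of 16.2. The log2 fold change was 3.59 ± 0.55 (SE), with a limma adjusted p of 0.00503 and an exact permutation p of 0.000305, the smallest the design can give. Normal cortex had 15.3 and 15.4 RPM, between the mCherry tumours and most receptor tumours.

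S100a1 (chromosome 3, 90511034 to 90514392) was 79.7 to 585 RPM with a median of 186 RPM in the receptor tumours, against 56.9, 51.3 and 19.5 RPM in the mCherry tumours. The groups did not overlap, and R108K replicate 1 stood at the top. The means were 187 ± 95.9 RPM and 42.5 ± 20.1 RPM (SD, n = 25 and 3), a ratio of 4.40. The log2 fold change was 2.12 ± 0.36, with a limma adjusted p of 0.0127 and an exact permutation p of 0.000305. Normal cortex had 135 and 140 RPM, well above the mCherry tumours and inside the range of the receptor tumours. S100a13, which lies beside S100a1 on the opposite strand at 90514435 to 90524581, averaged 57.8 ± 18.8 RPM with receptor and 26.9 ± 12.2 RPM with mCherry, and its log2 fold change of 1.13 ± 0.29 missed the threshold (limma adjusted p = 0.391).

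Pllp (chromosome 8, 94674894 to 94696278) was 52.8 to 619 RPM with a median of 278 RPM in the receptor tumours, against 82.3, 33.2 and 34.6 RPM in the mCherry tumours. EGFR wild-type replicate 1 was the only receptor tumour of the 25 that did not exceed mCherry replicate 1. The means were 297 ± 139 RPM and 50.01 ± 27.9 RPM (SD, n = 25 and 3), with a log2 fold change of 2.49 ± 0.46, a limma adjusted p of 0.0382 and an exact permutation p of 0.000611. Normal cortex had 127 and 143 RPM.

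**Figure D1:**
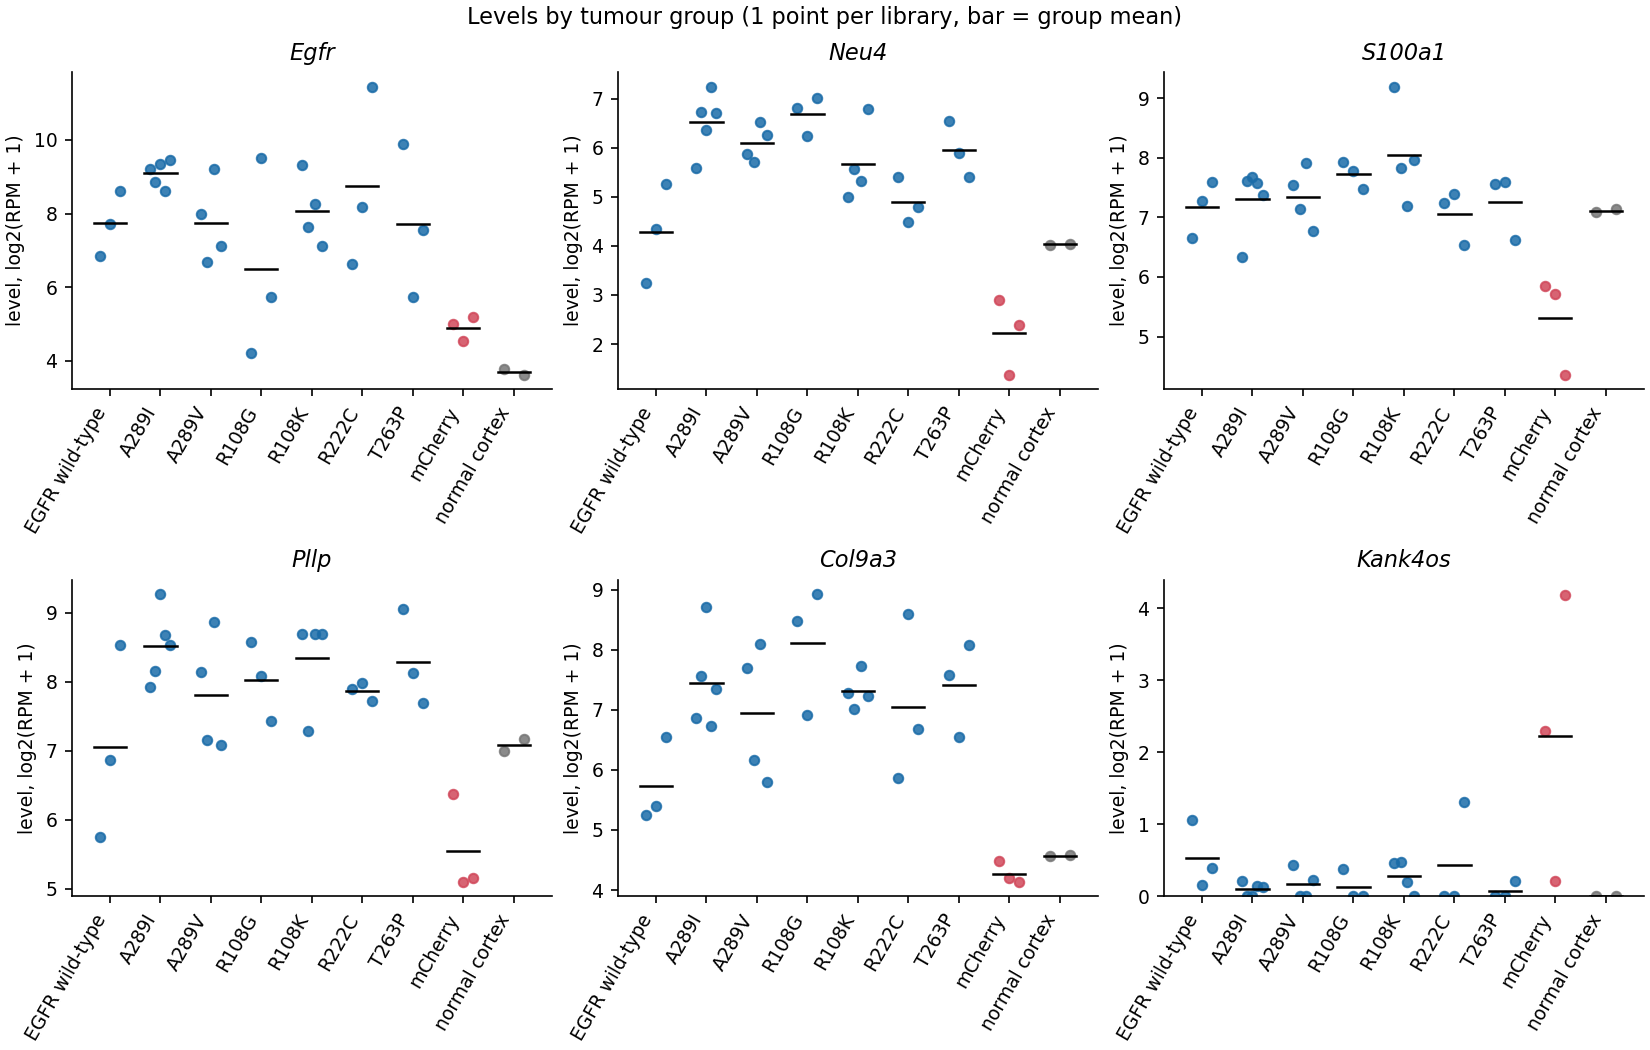
Each point is 1 library, on a log2(RPM + 1) axis, for 6 genes by receptor form, then mCherry, then normal cortex; bars are group means. For Neu4, S100a1 and Col9a3 all 25 receptor tumours lie above all 3 mCherry tumours, and for Kank4os the difference comes from mCherry replicates 1 and 3.

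Kank4os, annotated on the strand opposite Kank4 (chromosome 4, 98793768 to 98798900), was the only gene that fell. It had 0 to 1.48 RPM with a median of 0.106 RPM in the receptor tumours, 11 of which had no read, against 3.89, 0.165 and 17.3 RPM in the mCherry tumours. mCherry replicate 2, with 3 reads, lay inside the range of the receptor tumours, and the mCherry mean of 7.10 ± 8.99 RPM (SD, n = 3) rested on replicate 3. The log2 fold change had a 95% interval of -2.77 to -1.23 (SE 0.38, limma adjusted p = 0.0382, exact permutation p = 0.00275), and without mCherry replicate 3 it was -1.02 with an adjusted p of 0.983. The strand setting of the counting is not given in the sources used here, so reads of Kank4os and of Kank4 cannot be told apart. Tex19.1, a germ-cell gene, was the next gene lower with receptor that the rule named and had a like pattern, at 0 to 1.90 RPM with receptor against 2.92, 0.384 and 34.99 RPM with mCherry, with a log2 fold change of -2.16 ± 0.46 (limma adjusted p = 0.0967). The next 3, Sfrp4 (-1.89 ± 0.46), Stag1 (-0.99 ± 0.25) and Tmem164 (-0.73 ± 0.18), did not pass either, with limma adjusted p from 0.298 to 0.312. Sfrp4, which encodes a secreted WNT antagonist, was spread more evenly over the controls, at 1.45 to 15.8 RPM with receptor against a lowest value of 12.9 RPM with mCherry.

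The description of a shared change can be drawn more widely or more strictly than by the test. All 7 form means lay above the mCherry mean for 1755 genes (11.2%) and below it for 1511 genes (9.61%), and since the 7 forms were set against the same 3 mCherry libraries these counts are not 7 independent readings. All 4 genes called had all 7 form means on 1 side. Every receptor tumour exceeded every mCherry tumour for 10 genes (0.0636%), and for 0 genes was every receptor tumour below every mCherry tumour. Besides Neu4 and S100a1 these were Col9a3, Unc5c, Sulf2, Tmem163, M6pr, Taldo1, Erp27 and 1700047M11Rik, named after their values were seen except Col9a3 and Unc5c. None of the 8 passed the limma test. Erp27 and 1700047M11Rik separated by little at low levels. Their lowest receptor values were 0.302 and 0.842 RPM, against highest mCherry values of 0.206 and 0.729 RPM. In the tumours 1 read was 0.0387 to 0.383 RPM. With so few mCherry libraries, some of all the genes tested can separate fully under shuffled labels too. The count of 10 was not tested against shuffled labels, so it does not by itself show a shared change. The exact permutation p given for single genes is not adjusted for picking them out of all the genes tested.

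Col9a3, a chain of type IX collagen, came nearest, at 36.9 to 487 RPM with a median of 149 RPM in receptor tumours against 21.3, 17.4 and 16.6 RPM in mCherry tumours. The 3 mCherry values and the cortex values of 22.7 and 22.9 RPM lay close together, while the receptor tumours spread over a wide range. Its log2 fold change was 2.89 ± 0.56 (limma adjusted p = 0.0522, DESeq2 adjusted p = 9.21e-06, exact permutation p = 0.000305), and edgeR did not call it. Unc5c, a netrin receptor, was 36.4 to 195 RPM with receptor and at most 35.9 RPM with mCherry (log2 fold change 1.59 ± 0.34, limma adjusted p = 0.0967). Sulf2, which encodes an extracellular heparan sulfate sulfatase, averaged 531 ± 166 RPM with receptor and 230 ± 44.8 RPM with mCherry (log2 fold change 1.16 ± 0.26). M6pr, the cation-dependent mannose-6-phosphate receptor of lysosomal sorting, had the narrowest spread of the 10 for its level, at 177 ± 23.4 RPM with receptor and 128 ± 7.19 RPM with mCherry (log2 fold change 0.45 ± 0.13).

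Set against mCherry 1 form at a time, in a fit of 9 group means to all 30 libraries, the forms gave very different numbers of calls at a limma adjusted p of 0.05. A289V gave 752 genes (4.78%), A289I 97 (0.617%), R108K 11 (0.0699%), R108G 6 (0.0381%) and T263P 1 (0.00636%). A289V replicates 1 and 2 had the highest summed neuron gene levels of the receptor tumours, 11803 and 15367 RPM. Normal cortex had 18782 and 19092 RPM. The part of this in the A289V count was not tested. EGFR wild-type and R222C, with 3 tumours each, gave 0 by limma, the one tool run on single forms. At an unadjusted limma p below 0.05 they had 423 (2.69%) and 1121 genes (7.13%), against 3814 (24.2%) for A289V. No gene was called in 6 or 7 forms. Neu4 was called in 5 forms (all but EGFR wild-type and R222C), and S100a1 and Col9a3 in 4 each, A289I, A289V, R108G and R108K, which makes 3 genes called in at least 4 forms (0.0191%). A gene that misses the threshold in a form is not thereby shown to be unchanged in it: for EGFR wild-type the log2 fold change was 2.06 ± 0.49 for Neu4, 1.87 ± 0.45 for S100a1 and 1.51 ± 0.56 for Pllp.

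**Figure D2:**
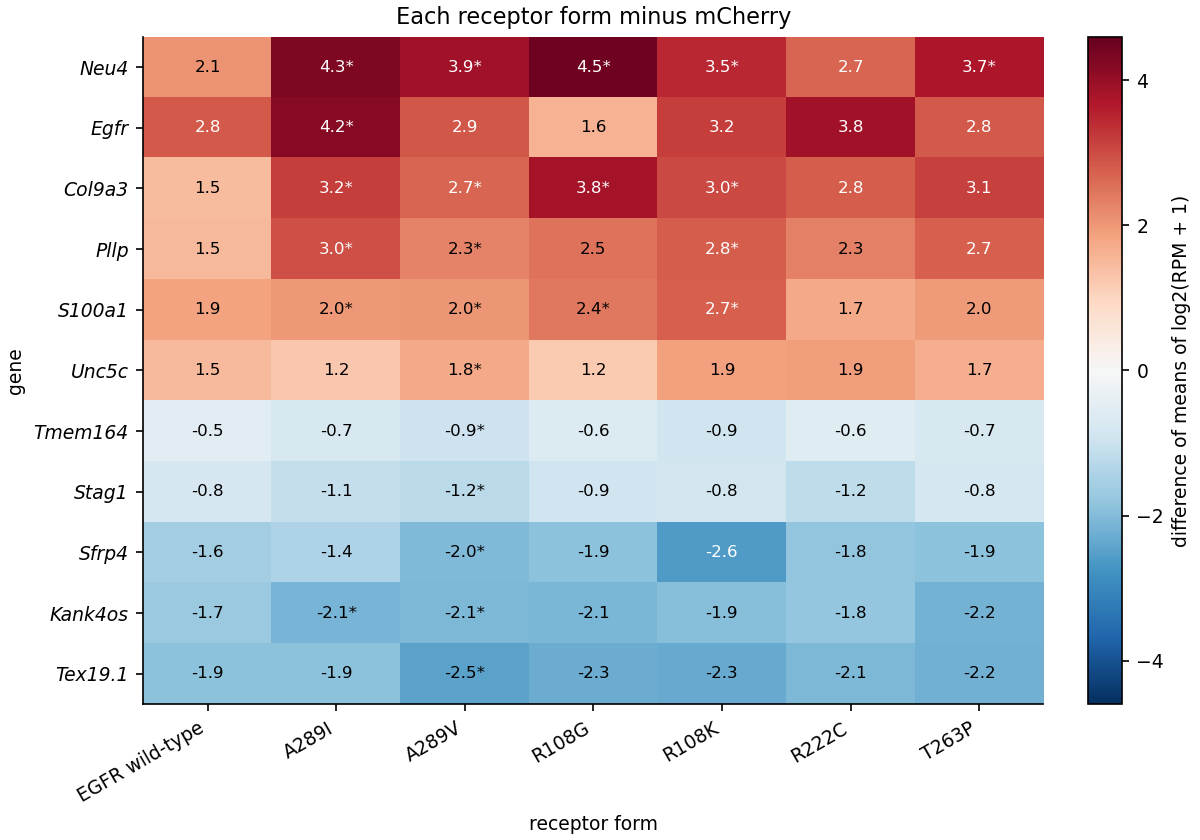
The log2 fold change of each receptor form against mCherry is given for the 10 genes named by the rule and Egfr, with stars where the limma adjusted p within a form was below 0.05. Every cell of a gene has the same sign, and Neu4 carries stars in 5 of the 7 forms.

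Whether a shared change differed in size among the 7 forms was asked with an F-test over the 7 form means. The mCherry and cortex libraries enter it only through the shared estimate of the spread. It passed for 1809 genes (11.5%). Neu4 was among them (limma adjusted p = 0.0107), with form means that differed by a factor of 4.86, the highest in R108G tumours (105 ± 27.8 RPM, SD, n = 3) and A289I tumours (98.0 ± 38.0 RPM, n = 5) and the lowest in R222C tumours (29.9 ± 10.3 RPM, n = 3) and EGFR wild-type tumours (21.7 ± 14.6 RPM, n = 3). For S100a1 the form means were 136 to 301 RPM and no difference passed (limma adjusted p = 0.446). Pllp (0.351) and Egfr (0.450) did not pass either. The form was tied to the library number, since the A289I and R108G tumours were all numbered above 37 and the R222C and T263P tumours all from 20 to 37, where the ribosomal RNA gene Rn45s took a larger share of reads. With a term for numbers above 37 the limma adjusted p of the F-test was 0.0779 for Neu4. Only the mCherry group had libraries on both sides of that bound. The term was therefore set by mCherry replicate 3 against replicates 1 and 2, and it cannot separate form from number range. For this gene the 2 cannot be told apart.

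Among the receptor family and its ligands limma called no gene in all 28 tumours. On the recovered reads DESeq2 called Tgfa (adjusted p = 0.00445) besides Egfr, and edgeR called neither. Besides Egfr, Erbb3, a neuregulin receptor, was 79.5 ± 54.3 RPM with receptor and 39.2 ± 51.1 RPM with mCherry (log2 fold change 1.62 ± 0.71, limma adjusted p = 0.885). Erbb4 was 7.63 ± 4.43 RPM with receptor and 15.1 ± 3.95 RPM with mCherry, with all 7 form means lower (-1.01 ± 0.37, limma adjusted p = 0.78). Erbb2, the ligandless partner, was 5.97 ± 4.58 RPM and 6.52 ± 7.17 RPM (0.11 ± 0.49, limma adjusted p = 1). Among 9 ligand genes tested, 2 were higher with receptor, and the list's median log2 fold change was -0.37, against 0.0045 over all genes. Without mCherry replicate 2 the list had 5 of 9 genes higher and a median of 0.02. Tgfa was 39.0 to 345 RPM with a median of 154 RPM in receptor tumours and 25.8 to 58.0 RPM in mCherry tumours (1.79 ± 0.43, limma adjusted p = 0.262), and it exceeded every mCherry tumour in 24 of 25. Ereg, with a mean of 0.477 RPM against 3.58 RPM (-0.98 ± 0.41), and Btc (-0.60 ± 0.39) were lower in all 7 form means without passing.

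Genes that ERK signalling is known to switch on, including its feedback inhibitors, were counted next. Of 20 such genes, 0 were called and 0 reached an unadjusted p of 0.05, 5 were higher with receptor, and the median log2 fold change was -0.11. Dusp6, an ERK phosphatase, was 107.9 RPM with receptor and 270.1 RPM with mCherry on average (-0.31 ± 0.58, limma adjusted p = 1). The summed level of the list was 629 to 2407 RPM with receptor, against 849, 3426 and 776 RPM with mCherry, so mCherry replicate 2 was above every receptor tumour. Without that library 16 of the 20 genes were higher with receptor, with a median of 0.58, and without mCherry replicate 3 only 1 was, with a median of -0.51. The sign of this list therefore followed 1 mCherry library. mCherry replicate 2 and 2 receptor tumours carried over 1000 RPM of Met, another receptor tyrosine kinase gene, and the part of this in the result was not tested.

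The oligodendrocyte lineage was read in its order of stages. In bulk tumours fewer cells of a type and less RNA per cell cannot be told apart. Among 17 precursor genes 1 was called, Neu4, 14 were higher with receptor, 10 had all 7 form means above mCherry (11.2% of all genes did) and the median log2 fold change was 0.71. Members of the list differed, with Pdgfra at 0.35 ± 0.38, Sox10 at 0.28 ± 0.33 and Olig2 at -0.10 ± 0.39 near equal. Cspg4 and Tnr were higher, Tnr at 1.45 ± 0.48 (limma adjusted p = 0.72). Gpr17, an orphan receptor, was counted in this list although it also marks the committed stage. It was 130 to 1707 RPM with a median of 571 RPM with receptor, against 33.1 to 298 RPM with mCherry (2.04 ± 0.57, limma adjusted p = 0.46). Cspg4, the NG2 proteoglycan, was 285 ± 148 RPM and 95.9 ± 11.2 RPM (1.37 ± 0.44, limma adjusted p = 0.668). The summed level of the list was 2805 to 11119 RPM with receptor and 5015, 6306 and 5927 RPM with mCherry, against 1109 and 1168 RPM in normal cortex, so both kinds of tumour carried it well above normal cortex, and 16 of 25 receptor tumours exceeded the highest mCherry tumour.

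At the committed stage, 13 of 14 genes were higher with receptor and the median log2 fold change was 0.96. All 7 form means were above mCherry for 7 of them (50%, against 11.2% of all genes). By limma 0 were called, with 6 at an unadjusted p below 0.05, where 2.83% of all genes were raised. DESeq2 called Tmem163 (adjusted p = 0.000238) and Sirt2 (adjusted p = 0.0262), and edgeR called neither. Tmem163, a zinc transporter, was the highest of them at 2.46 ± 0.57 (29.6 ± 19.2 RPM with receptor, 3.63 ± 1.28 RPM with mCherry, limma adjusted p = 0.218). Sirt2, a deacetylase abundant in oligodendrocytes, was 124 to 842 RPM with receptor and 113 to 147 RPM with mCherry (1.53 ± 0.42, limma adjusted p = 0.46). Bcas1 was 876 ± 381 RPM and 439 ± 246 RPM (1.12 ± 0.36). In 21 of 25 receptor tumours the summed level exceeded the highest mCherry tumour.

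All 17 myelin genes were higher with receptor, against 50.8% of all genes, and the median log2 fold change was 1.47. All 7 form means were above mCherry for 13 of them (76.5%, against 11.2% of all genes). None was called by limma or edgeR. An unadjusted limma p below 0.05 was reached by 11 of the 17, where 2.83% of all genes were raised. DESeq2 called 1 member, Gal3st1 (adjusted p = 0.00749). Mag, an adhesion protein of the inner myelin layer, was 227 ± 217 RPM with receptor and 32.6 ± 21.8 RPM with mCherry (2.39 ± 0.90, limma adjusted p = 0.803). Mog, a protein of the outer myelin surface, was 54.4 ± 50.3 RPM and 11.3 ± 10.02 RPM (2.13 ± 0.77). Myrf, the transcription factor that switches on myelin genes, was 138 ± 99.4 RPM and 29.3 ± 3.45 RPM (1.80 ± 0.64). The enzymes of myelin galactolipids showed the smallest p of the list, with Gal3st1 at 67.6 ± 36.97 RPM and 16.1 ± 4.16 RPM (1.82 ± 0.48, limma adjusted p = 0.446), Fa2h at 1.79 ± 0.54 and Ugt8a at 1.47 ± 0.46. The F-test among forms passed for Mag (limma adjusted p = 0.0183) and Mog (0.0428). Mean Mag was 525 ± 209 RPM in A289I tumours against 44.2 ± 23.7 RPM in R222C tumours. With a term for numbers above 37 the limma adjusted p was 0.19 and 0.259, but that term rests on mCherry replicate 3 against replicates 1 and 2.

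**Figure D3:**
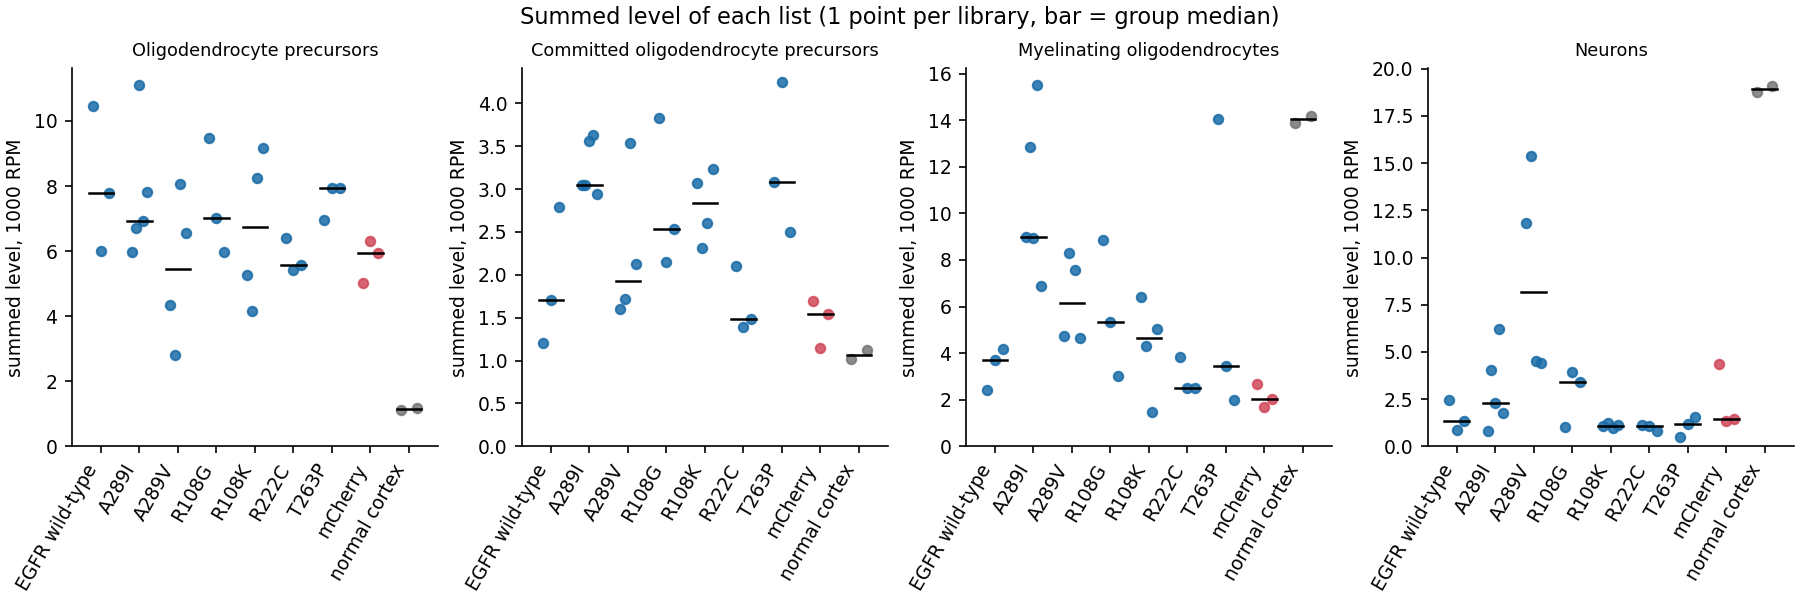
The summed level, in units of 1000 RPM, of 4 gene lists is plotted for each library by receptor form, then mCherry, then normal cortex; bars are group medians. The myelin sum of 20 of 25 receptor tumours exceeds the highest mCherry tumour, while the neuron sum of 5 of 25 does.

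Normal cortex also carries myelin, so the neuron list was read beside it. The summed myelin level was 1458 to 15526 RPM with a median of 4747 RPM with receptor and 2696, 1678 and 2012 RPM with mCherry, against 13885 and 14192 RPM in normal cortex. The neuron sum was 491 to 15367 RPM with a median of 1354 RPM with receptor and 4375, 1339 and 1426 RPM with mCherry, against 18782 and 19092 RPM in normal cortex. Of 25 neuron genes 10 were higher with receptor, 0 had all 7 form means on 1 side, and the median log2 fold change was -0.02. That figure depended on the mCherry tumours, since 21 of 25 were higher without mCherry replicate 1 and 6 of 25 without mCherry replicate 2. The myelin list kept 16 or 17 of its 17 genes higher without each mCherry library, with a median from 1.07 to 1.65. Its count with all forms above mCherry was 9 of 17 without mCherry replicate 2, against 16.1% of all genes in that setting, and the precursor count was 5 of 17. The part of residual cortex in the myelin and lineage values was not tested.

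**Figure D4:**
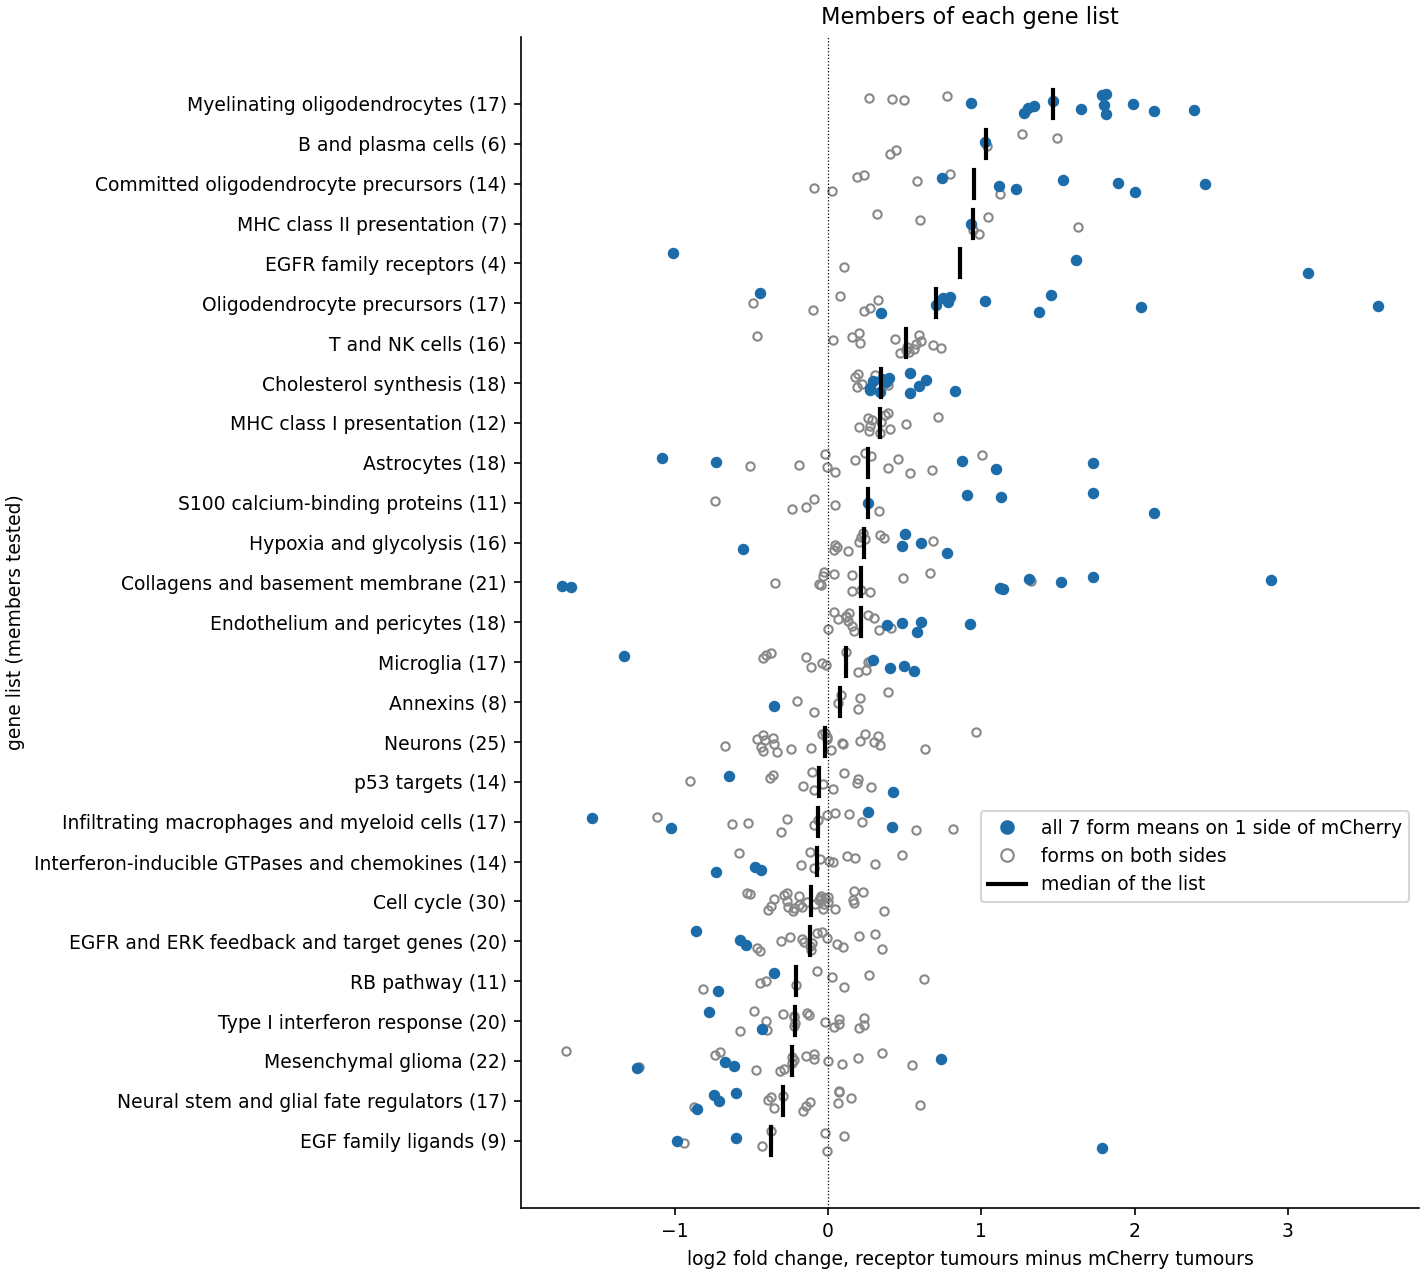
Each point is the log2 fold change, receptor minus mCherry, of 1 gene of a list, with bars at the list medians. Filled points have all 7 form means on 1 side of mCherry. The myelin list has the highest median at 1.47 and the EGF family ligands the lowest at -0.37, which is 0.02 without mCherry replicate 2.

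In the cholesterol synthesis list limma, edgeR and DESeq2 called 0 genes. An unadjusted limma p below 0.05 was reached by 4, where 2.83% of all genes were raised. All 18 cholesterol synthesis genes were higher with receptor, against 50.8% of all genes, at a median log2 fold change of 0.34. For 12 of them (66.7%, against 11.2% of all genes) all 7 form means were above mCherry. Dhcr7, of the last step of the pathway, was 73.2 ± 19.14 RPM with receptor and 47.1 ± 8.27 RPM with mCherry (0.59 ± 0.23, limma adjusted p = 0.812). The summed level exceeded the highest mCherry tumour in 20 of 25 receptor tumours. In the S100 family, where S100a1 was called, 7 of 11 genes were higher (63.6%, against 50.8% of all genes), at a median of 0.26. Of these, 5 had all 7 form means above mCherry (45.5% of the list, against 11.2% of all genes). S100b, expressed by astrocytes and by oligodendrocyte precursors, was 399.8 ± 183 RPM with receptor and 123 ± 83.6 RPM with mCherry (1.73 ± 0.43, limma adjusted p = 0.299, DESeq2 adjusted p = 0.0267). S100b was not called by edgeR, and S100a10 was at -0.74.

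Among 21 collagen and basement membrane genes, 14 were higher with receptor. All 7 form means were above mCherry for 6 (28.6%, against 11.2% of all genes). The median was 0.22, and 0.05 to 0.61 with 1 mCherry tumour left out. The X-linked pair Col4a5 and Col4a6, which lie head to head and encode basement membrane chains, went the other way in all 7 form means. Col4a5 was 30.3 ± 23.99 RPM with receptor and 74.9 ± 14.0 RPM with mCherry (-1.68 ± 0.63, limma adjusted p = 0.803), and Col4a6 was 17.8 ± 17.7 RPM and 40.8 ± 12.1 RPM (-1.73 ± 0.77, limma adjusted p = 0.898). Among 18 astrocyte genes 12 were higher, at a median of 0.26. Of these, 3 had all 7 form means above mCherry (16.7% of the list, near the 11.2% of all genes). Aldoc, the brain aldolase, was 566 ± 193 RPM with receptor and 252 ± 71.6 RPM with mCherry (1.10 ± 0.35, limma adjusted p = 0.668). The astrocyte list turned with 1 control, with 7 of 18 higher and a median of -0.15 without mCherry replicate 2, and 15 of 18 and 0.65 without mCherry replicate 1. Of 17 regulators of neural stem cells and glial fate 5 were higher and 4 had all 7 form means below mCherry (9.61% of all genes did), Sox4 among them at -0.85 ± 0.42. Of 30 cell cycle genes 8 were higher, with a median of -0.11 and 0 with all 7 form means on 1 side. Without mCherry replicate 3, 21 of the 30 were higher, with a median of 0.07.

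The libraries were not balanced over their label numbers or over sex-linked reads. Numbers below 20 held 5 receptor tumours and mCherry replicates 1 and 2, numbers from 20 to 37 held 12 receptor tumours and 0 mCherry tumours, and numbers above 37 held 8 receptor tumours and mCherry replicate 3. The labels do not say what these numbers stand for. The ribosomal RNA gene Rn45s took 2.47% to 4.57% of reads in the receptor tumours numbered 20 to 37, 0.117% to 1.32% in the other receptor tumours and 0.167% to 0.226% in the mCherry tumours. Below 20, Neu4 was 8.42 to 57.5 RPM in receptor tumours and 1.59 and 6.44 RPM in mCherry tumours (log2 fold change 2.67), and above 37 it was 47.3 to 151 RPM and 4.26 RPM (4.20). S100a1 had log2 fold changes of 1.92 below 20 and 3.11 above 37, and Pllp 1.61 and 3.18. Kank4os had -0.73 and -4.08. Of the receptor tumours 7 had reads of 4 Y-linked genes (at least 426 reads) and 18 had at most 3 such reads, while the mCherry tumours had at most 2. With the 18 alone against mCherry, Neu4 and S100a1 were called, Pllp and Kank4os were not, and Tgfa and Unc5c were.

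How far the 4 calls held when libraries were left out differed by gene. Neu4 was called in 47 of 50 fits, the 3 others being those without mCherry replicate 2 (limma adjusted p = 0.113), without mCherry replicate 3 (0.107) and with numbers below 20 only. S100a1 was called in 46 of 50, the others being the fit without mCherry replicate 3 (limma adjusted p = 0.598), that with numbers below 20 only, that without the 3 tumours of lowest Egfr among the receptor tumours (0.0508) and edgeR (0.0567). Pllp was called in 25 of 50 and Kank4os in 20 of 49. Without mCherry replicate 3 no gene was called by limma, and 620 had an unadjusted p below 0.05, against 817 with all 28 tumours. Across all fits the log2 fold change of Neu4 was 2.67 to 4.20, that of S100a1 1.65 to 3.11 and that of Pllp 1.61 to 3.18.

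**Figure D5:**
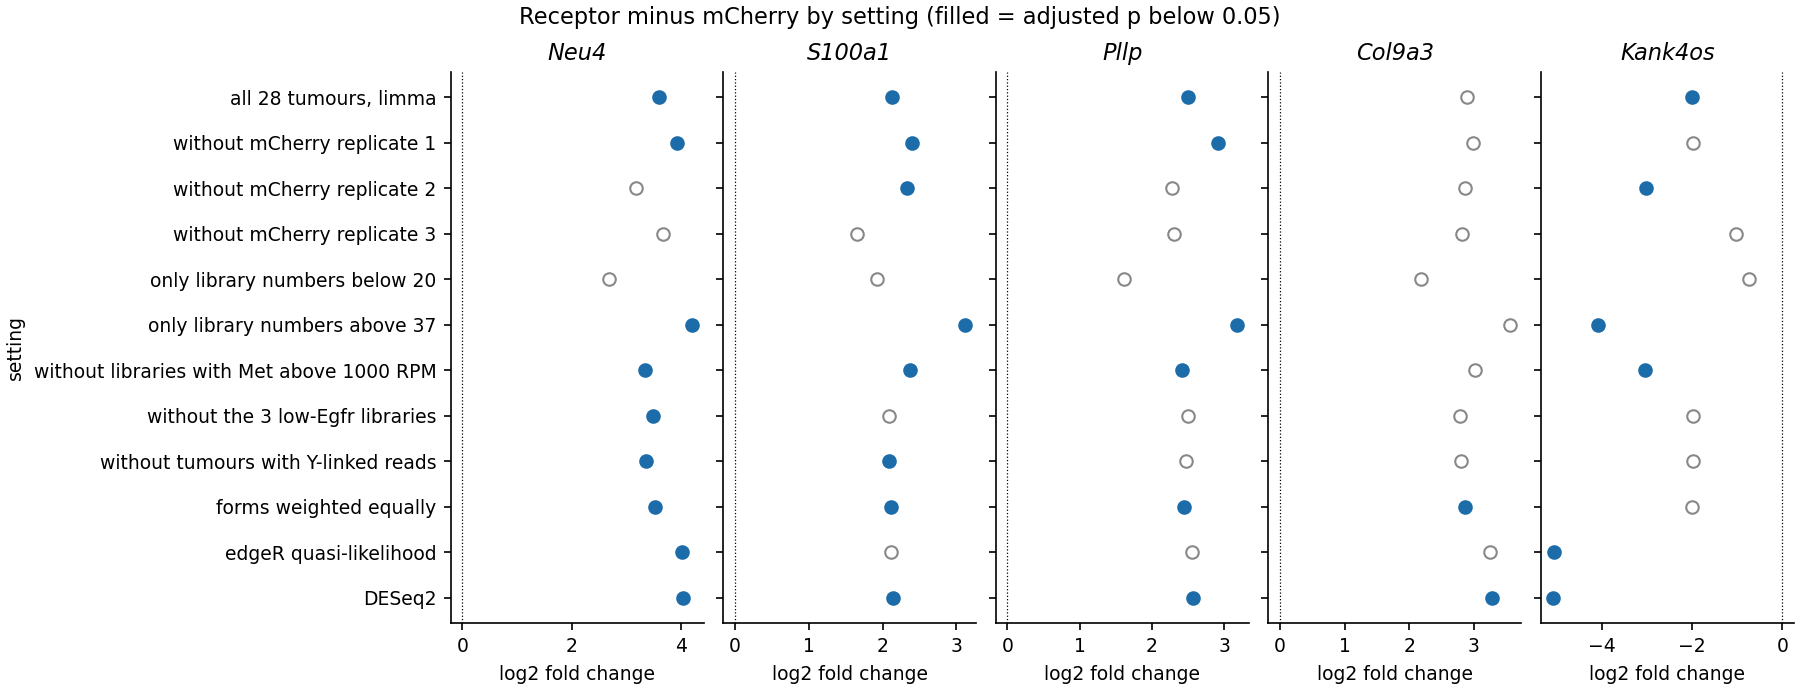
Log2 fold changes, receptor minus mCherry, of 5 genes are shown for all 28 tumours and for 11 other settings, with filled points where the adjusted p was below 0.05. Each gene keeps its sign in every setting shown, and the calls of Neu4 are lost without mCherry replicate 2 or 3 and with numbers below 20 only.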

How the data were processed

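Per the labels' protocols, polyadenylated RNA of bulk tissue was sequenced from TruSeq stranded libraries. The deposited tables, 9 in all, hold a normalised signal per gene and library for 24421 genes. They are named RPM, but once 1 factor per library was removed all values (100% in each library) were whole reads to within 0.05, so they were read as counts that the authors had divided by size factors. The values were divided by 10.2638, the same for every library, and called RPM. Recovered reads were 2784129 to 24475215 per tumour, and 1 read was 0.0387 to 0.383 RPM. The submitters' processing notes name FastQC, STAR 2.5.0a, mm10 and DESeq2 1.20.0 without roles. Spreadsheet software had turned 27 gene names into dates, and these were kept as listed.

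The filter kept genes that reached 1 RPM in 3 or more of the 28 tumours. They were tested with limma 3.58.1 in R 4.3.3 (trend and robust eBayes, two-sided) on log2(RPM + 1), 25 receptor against 3 mCherry libraries, with Benjamini-Hochberg adjustment over 15728 genes. Single forms and the F-test among them came from a fit of 9 group means to 30 libraries. Permutation tests took all 3276 choices of 3 of 28 tumours and were run for 44 genes without adjustment. Alternatives were another pseudocount, filters, TMM, library weights, equal weights of the forms, number ranges, left-out libraries and forms, and edgeR 4.0.16 and DESeq2 1.42.0 on the recovered reads. Leaving out tumours with Y-linked reads was chosen after seeing the data. The fit was tested on simulated data.

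The members and gene lists were chosen with earlier results of these data known. Named genes were the 15 largest rises and falls among genes called with all 7 form means on 1 side and at least 5 RPM in the higher group, or the 5 smallest p of a direction with fewer than 5 calls, which applied to both, leaving out Y-linked genes, Tsix, Xist and predicted loci. The EGFR family and up to 4 called members of each list were added. A further 24 list members and 6 of the genes without overlap were chosen after their values were seen. The values of 1 list member are not reported here. Positions came from GENCODE M21 on mm10, for 99.0% of the tested genes. Summaries were made in Python 3.11.15 with scipy 1.17.1, numpy 2.4.6 and pandas 2.3.3, and plots with matplotlib 3.10.9.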

Additional observations from a re-analysis of the deposited data

Results flagged for a closer look

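Within single receptor forms, 132 groups of 4 or 5 libraries of the named genes were checked for a library far from the others of its form, and 14 were found. For normally distributed values chance gives about 1 in 20 groups, and these groups hold the same libraries over many genes. In R108K tumours, replicate 2 stood apart in 4 genes, with Pllp at 155.9 RPM against 411 to 415 RPM, Sfrp4 at 6.13 RPM, Col4a5 at 42.5 RPM and Col4a6 at 47.6 RPM. Replicate 1 of the same form had 177.9 RPM of Ugt8a, and replicate 3 had 18.2 RPM of Mag, the lowest of the 25 receptor tumours.

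In A289I tumours, replicate 3 was high in Col9a3 (418 RPM), Erbb3 (129 RPM) and Dhcr7 (112 RPM), and replicate 1 was low in S100b (130.4 RPM) and high in Etv1 (158.9 RPM). In A289V tumours, replicate 3 was high in Sirt2 (759 RPM) and Gal3st1 (83.8 RPM), and its Tex19.1 level of 0.177 RPM stood out because the other libraries of the form had 0.

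Differences among the 7 receptor forms passed the limma F-test for 5 of the 44 genes described, and for 11.5% of all genes tested. The adjusted p was 0.0107 for Neu4, 0.0272 for Tnr, 0.0183 for Mag, 0.0428 for Mog and 0.0236 for Aldoc. With a term for library numbers above 37, to which the forms are tied, it was 0.0779, 0.106, 0.19, 0.259 and 0.0455 in the same order. Only Aldoc passed in that fit. The term rests on mCherry replicate 3 against replicates 1 and 2, so it cannot separate form from number range. Mean Tnr, an extracellular matrix gene of precursors, was 243 ± 18.5 RPM in A289I tumours (SD, n = 5) and 73.2 ± 41.4 RPM in EGFR wild-type tumours (n = 3). Mean Aldoc was 760.3 ± 18.1 RPM in R222C tumours (n = 3) and 297 ± 37.2 RPM in EGFR wild-type tumours (n = 3).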

How the results depend on the processing

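No paired analysis was possible because the labels give the groups no shared replicate numbers. With all tumours, 3 genes rose and 1 fell, all with every form mean on the same side of mCherry, and 2 of those that rose did not overlap between groups. With a pseudocount of 0.1 RPM these counts were 6 raised (6 with all forms, 4 without overlap) and 0 lowered, and 5 genes were called in at least 4 forms, against 3. Without a filter they were 5 raised (5 and 4) and 11 lowered (11 with all forms, 1 without overlap), with 1 gene in at least 4 forms, and with a filter of 5 RPM 0 fell (0 with all forms). Library weights gave 5 raised (5 and 4) and 3 lowered (3), and equal weights of the forms 6 raised (6) and 0 lowered (0). A term for 2 number ranges gave 7 raised (7 and 5) and 1 gene in at least 4 forms, and a term for 3 ranges 0 lowered (0). Numbers below 20 alone gave 0 in each count, with 196 genes at an unadjusted limma p below 0.05, against 817 with all tumours. Numbers above 37 alone gave 9 raised (9 and 9) and 36 lowered (36 and 36). That fit has 1 mCherry library, assumed to vary like the receptor tumours. Its receptor tumours are all A289I or R108G, so its counts with all forms cover only those forms and not all 7. In every setting that leaves out forms, all forms means the forms left in.

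On the recovered reads, edgeR gave 10 lowered (10 with all forms) and DESeq2 31 raised (29 with all forms, 8 without overlap) and 9 lowered (9). Egfr then had a log2 fold change of 3.90. The 4 limma calls shared 2 genes with edgeR and 4 with DESeq2. Without the libraries with Met above 1000 RPM 4 fell (4 with all forms, 4 without overlap) and 7 genes were called in at least 4 forms. Without the 3 low-Egfr libraries 1 rose (1 and 1) and 0 fell (0). Without A289I, A289V, R108G, R108K, R222C or T263P, each in turn, 0 fell (0), and without the EGFR wild-type form 7 rose (7 and 7). Without tumours with Y-linked reads 0 fell (0), and 4 of the raised genes did not overlap.

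Leaving out 1 library at a time gave 0 to 6 raised (0 to 6 with all forms, 0 to 6 without overlap), 0 to 3 lowered (0 to 3 and 0 to 3), 1 to 4 genes called in at least 4 forms, and a log2 fold change of Egfr from 2.94 to 3.29. The lowest counts of raised genes came without mCherry replicates 2 and 3. Erbb2, at 0.11 with all tumours, was at -0.22 with numbers below 20, -0.15 with edgeR, -0.12 with DESeq2 and -0.42 to 0.86 with 1 library left out. Ereg was at -1.62 to 0.026 with 1 library left out, the higher value without mCherry replicate 2. The number of genes that differed among forms stayed within 1.5 times 1809. The causes of these changes were not tested. Leaving out any 1 of the 3 mCherry libraries changed which genes limma called. Outside mCherry replicates 1 and 3, no library had more than 16 reads of Kank4os or 49 reads of Tex19.1.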

Other observations

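Immune and vascular gene lists varied widely within both kinds of tumour. All 7 genes of MHC class II presentation were higher with receptor, at a median log2 fold change of 0.95 with 0 called by limma, edgeR or DESeq2 and 0 at an unadjusted limma p below 0.05, and their summed level was 192 to 10189 RPM with receptor against 449, 1591 and 4145 RPM with mCherry. All 6 tested B and plasma cell genes were higher, at a median of 1.03, with a sum of 2.96 to 1605 RPM with receptor against 10.1, 18.4 and 151 RPM with mCherry. Of 16 T and NK cell genes 15 were higher (median 0.51), and of 12 MHC class I genes all were (median 0.34). Type I interferon response genes went the other way, with 6 of 20 higher and a median of -0.22. All 18 endothelial and pericyte genes were higher, at a median of 0.21, with Vwf, the endothelial clotting factor, at 43.0 ± 15.9 RPM with receptor and 23.5 ± 12.7 RPM with mCherry (log2 fold change 0.92 ± 0.34, limma adjusted p = 0.782). Hypoxia and glycolysis genes were higher for 15 of 16 (median 0.23).

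Most of these directions rested on 1 mCherry tumour. Without mCherry replicate 1 the MHC class II list had 4 of 7 genes higher (median 0.09), T and NK cells 9 of 16 (0.10), MHC class I 1 of 12 (-0.25), endothelium and pericytes 7 of 18 (-0.07) and hypoxia and glycolysis 8 of 16 (0.0019). With numbers above 37 only, against mCherry replicate 3, 0 of 7 MHC class II genes (median -0.34), 2 of 12 MHC class I genes (-0.28), 9 of 18 endothelial and pericyte genes (-0.05) and 5 of 16 hypoxia genes (-0.30) were higher. The interferon list had 11 of 20 genes higher without mCherry replicate 2 (median 0.17) and 12 of 20 without mCherry replicate 3 (0.14). The B and plasma cell list kept 6 of 6 higher without each mCherry tumour, with medians from 0.67 to 1.43.

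The genes that edgeR called lower with receptor differed in which mCherry tumour carried them. Of these 10 genes, mCherry replicate 1 was the highest control in 2, replicate 2 in 4 and replicate 3 in 4. Veph1 had at most 21.2 RPM in the 25 receptor tumours, against 0.608, 0.0549 and 534 RPM in mCherry tumours. Wnt16, a WNT ligand, had at most 5.75 RPM with receptor, against 0.608, 55.6 and 0.206 RPM with mCherry. Mab21l1 had at most 4.03 RPM with receptor, against 0.486, 36.3 and 0.550 RPM with mCherry.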
